A study of Mus musculus with 2 samples.

Results

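The Schlafen genes of the mouse were examined in T helper 2 (Th2) cells with and without Ecm1. The 7 genes are Slfn1, Slfn2, Slfn3, Slfn4, Slfn5, Slfn8 and Slfn9, taken as every probe set whose only gene symbol in the platform annotation is one of these. That gave 11 probe sets out of 45101 on the array, and 7 genes out of the 18193 that probe sets with 1 symbol name. The family was chosen with the difference between these 2 arrays in view, so its values are a description and carry no test.

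The series held 2 Affymetrix arrays, 1 of Th2 cells from Ecm1 knockout C57BL/6 mice and 1 of Th2 cells from wild-type C57BL/6 mice, described as females of 6 weeks. In both groups splenic cells were freed of red cells, selected magnetically with an anti-CD4 antibody and cultured for 4 days on plate-bound anti-CD3 (3 µg/ml) with soluble anti-CD28 (2 µg/ml). The Th2 medium held IL-4 (10 ng, per a volume garbled in the label) and antibodies to IFN-γ and IL-12 (10 µg/ml of each). Naive cells are named in the design text, while the isolation protocol names only CD4. The sources used here do not state the kind of Ecm1 allele or how many mice were behind an array. There were no replicates, so every difference is between 2 arrays and the number of arrays limits the precision.

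Schlafen proteins are a family of vertebrate proteins with a shared amino-terminal core that binds RNA and, in several members, cuts transfer or ribosomal RNA. Mouse members are grouped by length: Slfn1 and Slfn2 are short, Slfn3 and Slfn4 intermediate, and Slfn5, Slfn8 and Slfn9 long, with a helicase-like carboxy-terminal part. Many are induced by type I interferon, and in lymphocytes the family is known for restraining growth: Slfn2 is needed for T cells to stay quiescent and for their transfer RNA to be shielded from the ribonuclease angiogenin.

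The 7 genes lie in 1 cluster, and the windows before their start sites were compared and searched for letters of an interferon response. Promoters were taken from RefSeq with build GRCm38.p6, from 250 bases before the annotated start up to the start. All 7 genes matched, Slfn8 with 2 starts. Slfn5 is shown first because it had the largest difference on the arrays (chr11:82951852-82952101, plus strand). Capitals in it mark the core of the interferon-stimulated response element, GAAANNGAAA on either strand, at bases -155 to -146 from the start.
Slfn5: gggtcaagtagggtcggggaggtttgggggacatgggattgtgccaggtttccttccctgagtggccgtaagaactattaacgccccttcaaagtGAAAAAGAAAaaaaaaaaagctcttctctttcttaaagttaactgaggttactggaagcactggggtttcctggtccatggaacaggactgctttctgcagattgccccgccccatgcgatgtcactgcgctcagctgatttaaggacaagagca
The last 100 bases before the start of Slfn9 (chr11:82991831-82991930, minus strand) and before the outer start of Slfn8 (chr11:83020811-83020910, minus strand) are shown because both hold the same core, in capitals, on the reverse strand.
Slfn9: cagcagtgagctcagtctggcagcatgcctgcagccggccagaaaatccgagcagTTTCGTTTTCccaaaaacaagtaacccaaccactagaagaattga
Slfn8: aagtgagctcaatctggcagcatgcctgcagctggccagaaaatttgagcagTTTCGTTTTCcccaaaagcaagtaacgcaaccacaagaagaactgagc
In Slfn9 the core spans bases -45 to -36 and in Slfn8 bases -48 to -39, or -136 to -127 from its inner start. Over the 250 bases, Slfn9 and that Slfn8 window had 206 identical bases of 242 aligned, 79.8% of the alignment with its gaps. No other pair of windows from different genes exceeded 49.5%. Unrelated windows were not aligned, so these lower values do not measure how far the genes have diverged. The core was found in 2.98% of 32851 mouse promoter windows of the same length, and in the windows of 3 of the 7 Schlafen genes.

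The short and intermediate genes share another stretch, which was noticed by reading these sequences. Slfn1 (chr11:83116570-83116819, plus strand) and Slfn2 (chr11:83064862-83065111, plus strand) are shown because both were measured well above the floor on the arrays, and the last 100 bases of Slfn4 (chr11:83175086-83175185, plus strand) for comparison. Capitals mark the longest run common to the windows of Slfn1, Slfn2, Slfn3 and Slfn4, ACTTCCTGG.
Slfn1: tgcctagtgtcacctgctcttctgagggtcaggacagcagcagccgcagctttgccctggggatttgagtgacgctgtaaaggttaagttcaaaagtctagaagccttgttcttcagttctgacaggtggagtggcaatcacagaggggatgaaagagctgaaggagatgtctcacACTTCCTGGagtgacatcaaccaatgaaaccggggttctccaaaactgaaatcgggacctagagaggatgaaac
Slfn2: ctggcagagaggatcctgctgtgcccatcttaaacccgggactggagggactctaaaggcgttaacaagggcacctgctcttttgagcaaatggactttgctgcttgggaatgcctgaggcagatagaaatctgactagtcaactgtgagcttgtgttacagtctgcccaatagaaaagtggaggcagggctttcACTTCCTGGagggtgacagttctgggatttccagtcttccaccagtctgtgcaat
Slfn4: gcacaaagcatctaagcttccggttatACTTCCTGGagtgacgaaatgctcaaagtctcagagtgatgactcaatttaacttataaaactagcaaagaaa
The run starts at base -74 in Slfn1, -55 in Slfn2, -73 in Slfn4 and -42 in Slfn3, and holds the letters ACTTCCTG, a form of the site bound by ETS factors. It lay on either strand in 0.700% of all windows, and in none of the Slfn5, Slfn8 or Slfn9 windows. In Slfn1, Slfn2 and Slfn4 the shared run extends to ACTTCCTGGAG, found in 20 of the 32851 windows (0.0609%). ACTTCCTG alone, which that run contains, was in 2.69% of windows. ACTTCCTGG and ACTTCCTGGAG were picked as the longest runs common to these Schlafen windows, which are among the 32851. Their presence there was thus fixed in advance, as was that of ACTTCCTG within them. None of these shares measures how rare such sharing is. The interferon-γ-activated site TTCNNNGAA (7.02% of windows) and the FOXO letters TGTTTAC (3.17%) were searched on both strands and matched in no Schlafen window. These are matches of letters and not measured binding.

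On the arrays, the median signal of each array served as its floor (65.5 for the knockout, 69.2 for wild type), under which a signal was not read as a level. Differences are log2 signal in the knockout minus wild type, centred on the median of all probe sets at or above both floors, which was -0.10 before centring. A gene is read from its brightest probe set. Of the 7 Schlafen genes, 4 (Slfn1, Slfn2, Slfn8, Slfn9) reached the floor on both arrays. A further 2 (Slfn4, Slfn5) were above it in wild type alone and so have only an upper limit of the difference, and Slfn3 was below it on both. The linear signal was lower in the knockout in 10 of the 11 probe sets, 3 of which were below the floor on both arrays. Of the 4 probe sets that reached both floors 3 were lower as deposited, and so were 57.0% of all 20834 such probe sets. By gene, 2 of the 6 genes with a value, Slfn1 and Slfn5, were lower by 2-fold or more and none was higher by as much. Over all 11265 genes that reached a floor, 4.45% were lower and 7.37% higher by 2-fold or more. The 4 genes measured on both arrays had a median difference of -0.53, against 0.04 over the 10144 genes so measured.

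Ecm1 read 19.3 in the knockout, below the floor, and 29114.7 in wild type; the sources used here do not state whether its probe set lies in the deleted part. The sample descriptions name liver, while all 5 hepatocyte markers were below the floor on both arrays. The Y-linked Eif2s3y was at 2214.4 in knockout cells against 25.0, although the labels describe female mice. Its other probe set read 16.3 and 3.1, below both floors. Xist, a noncoding RNA made from the silenced X, remained well above the floor in the knockout, its 3 probe sets reading 2203.3, 937.0 and 8715.3, or 38.7%, 48.0% and 44.2% of wild type. The part of either in the Schlafen values was not tested.

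**Figure D1:**
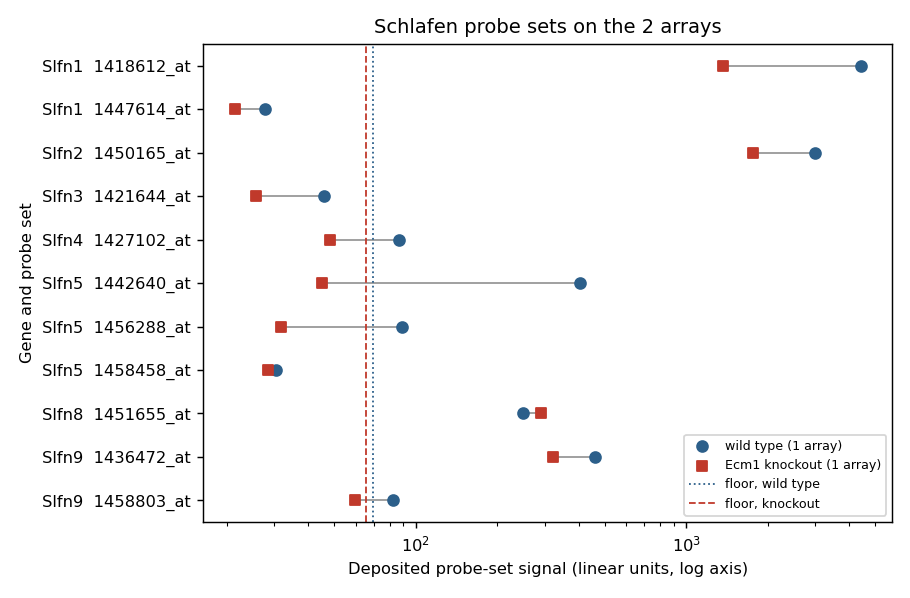
Deposited signal (log axis, linear units) of each of the 11 Schlafen probe sets on the Ecm1 knockout array (squares) and the wild-type array (circles), 1 array each, with the floor of each array as a vertical line. The square lies left of the circle in 10 probe sets, with Slfn8 the exception; 7 probe sets reach below a floor on at least 1 array, 3 of them on both.

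The short members differed in size though not in direction. Slfn1, a growth-restraining gene of thymocytes and T cells, read 1365.5 in knockout cells and 4431.5 in wild-type cells. Its signal was thus 30.8% of wild type, and after centring the difference was -1.60, or 3.02-fold lower. Of the 10144 genes measured on both arrays, 89 (0.877%) were as low or lower, Slfn1 included. The other Slfn1 probe set, 1447614_at, read 21.4 and 27.6, below the floor on both arrays, and gives no value. Averaging the probe sets therefore takes in a signal below the floor and leaves -0.93, which is under 2-fold. The RNA is from bulk cells, in which fewer cells of a type and less RNA per cell cannot be told apart.

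Slfn2, the quiescence gene, has 1 probe set, which read 1770.8 in knockout cells and 3000.0 in wild-type cells. The difference was -0.66, or 1.58-fold lower, and 11.2% of measured genes were as low or lower. Slfn1 and Slfn2 thus lay 0.94 apart on the log2 scale. The difference between 2 probe sets of the same gene had an SD of 0.37 where the dimmer one read 1024 or more. That SD runs over 1240 genes and leaves out error between animals, cultures and arrays.

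The intermediate members were at the limit of what the arrays measured. Slfn4, known from myeloid cells and activated macrophages, read 48.1 in the knockout, below the floor, and 86.5 in wild type. Set against the floor, it was at least 1.23-fold lower, a difference of -0.30 or less. Slfn3, a close relative, read 25.7 and 45.8, both below the floor. A probe set annotated to both Slfn3 and Slfn4 read 39.4 in knockout cells and 31.3 in wild-type cells, also below both floors. Slfn3 and Slfn4 transcripts can share probes, so a single-gene value for either is uncertain. Macrophage and monocyte markers, whose cells are known to express Slfn4, had a median difference of 0.33 over 14 genes. Of these, 12 lay above 0 and 2 below. Only 9 of the 14 were measured on both arrays, and the others, all above 0, have only a lower limit. Highest in the knockout were the lysozyme gene Lyz2 (2796.2 against 275.5) and the Fc receptor gene Fcgr2b (3484.8 against 876.5). The 2 below 0 were the chemokine receptor gene Ccr2 (440.1 against 2556.8) and the Fc receptor gene Fcgr3 (960.1 against 2969.6).

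Among the long members, Slfn5 had the largest difference of the family and Slfn8 and Slfn9 lay within 2-fold. Slfn5, an interferon-induced nuclear member, read 45.0 in knockout cells and 404.8 in wild-type cells with its brightest probe set, 1442640_at. Against the floor it was at least 5.75-fold lower, a difference of -2.52 or less. That was the 4th lowest limit among 482 genes below the floor only in the knockout. As deposited, the knockout signal was 11.1% of wild type. The other Slfn5 probe sets did not reach that size: 1456288_at read 31.7 and 89.0, at least 1.27-fold lower, and 1458458_at read 28.3 and 30.5, below both floors. In the knockout all 3 were below the floor. The floor at the 70th percentile of each array turned the Slfn5 limit into -0.45, and the mean of the 3 probe sets gave -0.55, neither of which is 2-fold. Slfn5os, a noncoding gene overlapping Slfn5 in the RefSeq table, read 2.1 and 7.4, below both floors.

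Slfn9 read 321.8 in knockout cells and 458.2 in wild-type cells, a difference of -0.41 or 1.33-fold lower. Its other probe set read 59.6 and 82.3, at least 1.17-fold lower. Slfn8 alone read higher in the knockout, with 289.9 against 249.6, a difference of 0.32 or 1.25-fold. With the floor at the 70th percentile its wild-type signal fell below the floor and the lower limit of its difference was -0.02, so its direction is not fixed there. The gap between Slfn8 and Slfn9 was 0.73, where 2 probe sets of the same gene differed with an SD of 0.49 in the range of 256 to 1024 (1839 genes). Slfn8 and Slfn9 are close copies, so their probe sets may share signal.

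The 2 arrays also differed in markers of cell types. All 11 T cell markers were lower in the knockout, 5 of them at least 2-fold, with a median of -0.98 and summed signals of 53628 against 103597. Trat1 was the lowest (-2.64) and Cd3d the highest (-0.52). Slfn1 was lower than 10 of the 11, whereas Slfn2 was above 10 of them and Slfn8 and Slfn9 above all 11. CD8 and natural killer markers had a median of -1.19 (6 of 10 past 2-fold, each lower). B cell markers had a median of 1.02 with 5 of 10 at least 2-fold higher (summed signals 36947 against 18344), plasma cell markers 1.67 with 6 of 8, and macrophage and monocyte markers 0.33 with 4 of 14 higher and 2 lower by 2-fold or more. Only 3 neutrophil and 3 dendritic cell markers reached a floor, with medians of 0.67 and 0.42. Among all genes that reached a floor, 4.45% were lower and 7.37% higher by 2-fold or more. The part of these marker shifts in the Schlafen differences was not tested.

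**Figure D2:**
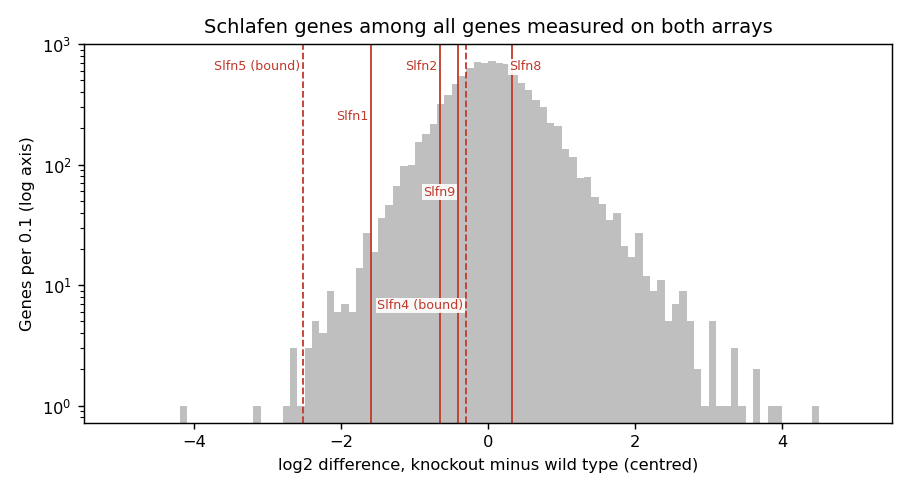
Number of genes (log axis) by log2 difference, knockout minus wild type, in steps of 0.1 over the 10144 genes measured on both arrays, with the Schlafen genes as vertical lines; dashed lines are upper limits. Slfn5 (-2.52) and Slfn1 (-1.60) stand in the lower tail, Slfn2, Slfn9 and Slfn8 lie within 2-fold of 0, and the limit of Slfn4 is -0.30.

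Along the chromosome the differences did not run evenly. In RefSeq order the cluster holds Slfn5, Slfn9, Slfn8, the pseudogene-named Slfn10-ps, Slfn2, Slfn1, Slfn4, Slfn3 and Slfn14. Slfn10-ps, which is outside the 7 genes, read 294.6 in knockout cells and 676.8 in wild-type cells, a difference of -1.10 or 2.14-fold lower. Over the alternative settings it ran from -1.20 with no centring to -0.99 with log2(signal + 50), the latter just under 2-fold. Its neighbours Slfn8 (0.32) and Slfn2 (-0.66) were both less low. Slfn14 was not analysed here. Slfnl1, a Schlafen-like gene on another chromosome, read 66.4 in the knockout, just above the floor, and 13.3 in wild type, below it.

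Genes beside the cluster lay within 2-fold. On one side the DNA repair gene Rad51d was at 0.16 and the ribosome biogenesis gene Nle1 at 0.50, while Fndc8, Unc45b and Unc45bos were below the floor on both arrays. On the other, the adaptor subunit gene Ap2b1 was at 0.09, and the other 4 neighbours have no probe set of their own name here. AI662270, a noncoding gene between Slfn3 and Slfn14 named here because of its values, read 11443.1 against 6347.7, a difference of 0.95. The lower values thus did not extend to every gene of the interval.

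**Figure D3:**
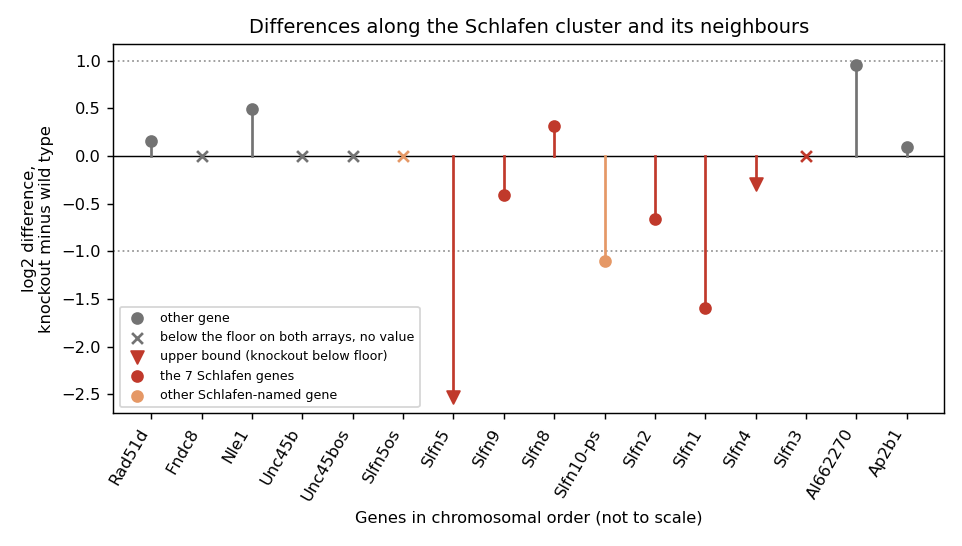
Log2 difference, knockout minus wild type, of the genes of the Schlafen cluster and up to 5 neighbours each side, in RefSeq order and not to scale; triangles are upper limits, crosses genes below the floor on both arrays, dotted lines mark 2-fold. Slfn5, Slfn1 and Slfn10-ps pass the lower dotted line, and the neighbours Rad51d, Nle1 and Ap2b1 lie between 0.09 and 0.50.

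With 2 arrays, likeness between genes reduces to a like difference. Nearest to Slfn1 were Adamts6, the T cell coreceptor gene Cd4 (-1.59) and the phosphatase gene Dusp10, and 23 genes lay within 0.05 of it. Nearest to Slfn2 were Tle3, Pdlim2 and Nampt, with 316 genes within 0.05. Nearest to Slfn8 were Kpnb1, Rb1cc1 and Heatr5a (593 within 0.05), and to Slfn9 Reep1, Deptor and H2aw (494 within 0.05). So many genes share the differences of Slfn2, Slfn8 and Slfn9 that their nearest names carry little.

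Interferon-induced genes, the class to which many Schlafen genes belong, lay below 0 in 25 of 30 cases. Of the 30, which are the listed genes that reached a floor, 11 were lower by 2-fold or more, none was higher by as much, and the other 19 did not reach it by value or limit. At the 70th-percentile floor 6 were lower by that much. The list median was -0.83, against 0.05 over all genes. Of all 11265 genes that reached a floor, 5210 lay below 0 and 6055 above, and 4.45% were lower by 2-fold or more. Oasl1, counted above 0, had only an upper limit of 0.003, so its sign is not settled. Usp18, which removes the interferon-induced modifier ISG15, read 124.2 against 412.6 (-1.63) and Dhx58, an RNA sensor, 160.3 against 528.6 (-1.62). Samd9l, a growth-restraining antiviral gene, was at -1.37 and Xaf1 at -1.27. Not all moved that way, since Zbp1, a nucleic acid sensor, was at 0.82 and Bst2, which tethers virus particles, at 0.77. Of the 26 listed genes measured on both arrays, 2 were lower than Slfn1, 16 lower than Slfn2, 19 lower than Slfn9 and 22 lower than Slfn8. The genes with the core letters in the promoter window were at -2.52 or less (Slfn5), -0.41 (Slfn9) and 0.32 (Slfn8). The Slfn5 limit rests on its brightest probe set. It was -0.45 at the 70th-percentile floor and -0.55 with the mean of probe sets. Probe sets of Slfn8 and Slfn9 may share signal. The part of the core letters in these differences was not tested.

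Genes that receive and pass on the interferon signal lay below 0 in 12 of 15 cases. Of the 15, 2 were past 2-fold, both lower, and 13 did not reach it, with a median of -0.42. Among all genes that reached a floor, 4.45% were lower by as much. Ifngr1, the ligand-binding interferon-γ receptor chain, was at -1.67. Irf9 (-1.01) and Stat2 (-0.98), which are parts of the factor that binds the response element, and the kinase gene Jak1 (-0.89) followed. The type I receptor genes Ifnar1 and Ifnar2 were at -0.06 and -0.09. The culture held an antibody against IFN-γ in both groups.

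T cell quiescence genes, the setting in which Slfn2 is best known, lay below 0 in 21 of 22 cases, most of them by less than 2-fold. Of the 22, 7 were past 2-fold, each of them lower (4.45% of all genes), and 15 did not reach it. The list median was -0.87. The transcription factor gene Klf2 (-2.33), its target S1pr1 (-2.14), the repressor gene Bach2 (-1.69) and the IL-7 receptor gene Il7r (-1.43) had the largest differences. Slfn1 lay below all but 3 of the 22, and Slfn2 (-0.66) had 15 below it. T cell markers had a median of -0.98, with all 11 below 0. Lower quiescence genes and a lower T cell signal cannot be told apart in bulk RNA from these arrays. Of 16 T cell activation and proliferation genes, 5 were past 2-fold, each of them higher (7.37% of all genes), and 11 did not reach it. Their median was 0.70. Ccnd3 (-0.61), Myc (-0.32) and Tnfrsf4 (-0.11) lay below 0. Slc7a5, an amino acid transporter gene, was the highest (3.70), followed by the cyclin gene Ccne2 (1.73), Slc3a2 (1.53) and the early activation marker Cd69 (1.37). B cell and plasma cell markers were also higher, with medians of 1.02 and 1.67. Higher activation genes within T cells and a changed mix of cells cannot be told apart here.

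The lists of RNA cleavage and translation shut-off genes and of replication stress genes had medians above 0. Of 16 genes of RNA cleavage and translation shut-off, 3 were higher and 1 lower by 2-fold or more and 12 did not reach it. Among all genes that reached a floor, 7.37% were higher and 4.45% lower by as much. The list median was 0.34. By sign 12 of the 16 lay above 0 and 4 below, yet their summed signal was lower in the knockout (27335 against 38884). With the mean of probe sets the median was 0.09. The ribosome stress kinase gene Map3k20 was at 2.06 and the ribosome rescue gene Pelo at 1.62, whereas the nucleotide hydrolase gene Samhd1 was at -1.10 and the antiviral gene Zc3hav1 at -0.86. Ang, the gene of angiogenin, was the other one past 2-fold, and its difference was a lower limit of 1.53 because wild type was below the floor; it was named after its value was seen, and its family holds close copies. At the 70th-percentile floor none of the 16 was higher by 2-fold. All 13 replication stress genes lay above 0 after centring, with a median of 0.61. Of the 13, 1, the replication protein gene Rpa3 (1.03), was at least 2-fold higher, where 7.37% of all genes were. Rpa3 was under 2-fold with no centring, quantile normalization or loess. Rpa2 (0.91), Chek1 (0.88) and Cdt1 (0.86) came next.

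**Figure D4:**
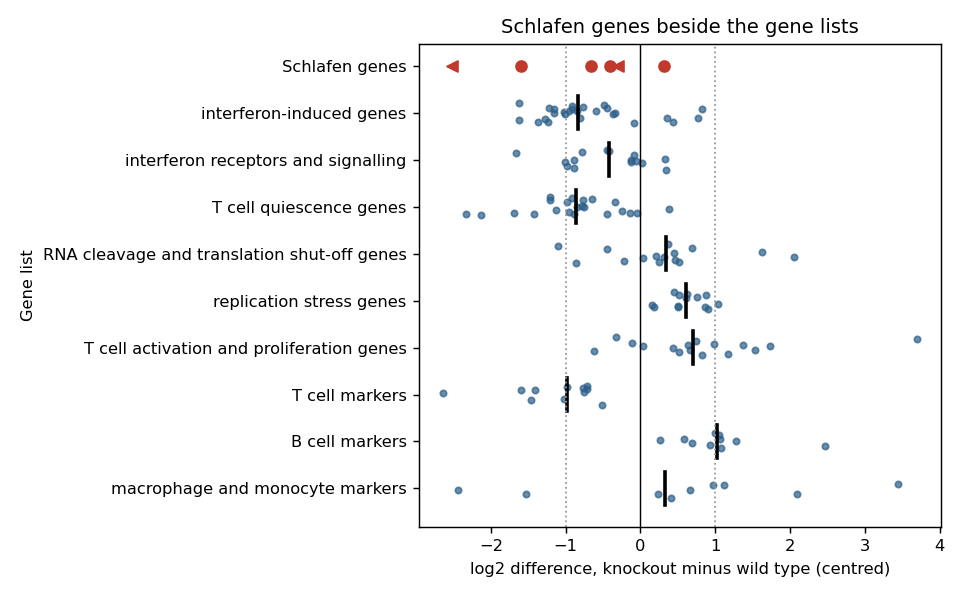
Log2 difference, knockout minus wild type, of the Schlafen genes (large marks, triangles are upper limits) and of each gene of 9 lists measured on both arrays (small points); bars are the list medians given in the text or, for lists of cell markers, the same quantity, and include genes at the floor on 1 array. Slfn1 and Slfn5 lie at or beyond the low end of the interferon-induced genes, whose median is -0.83.

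**Figure D5:**
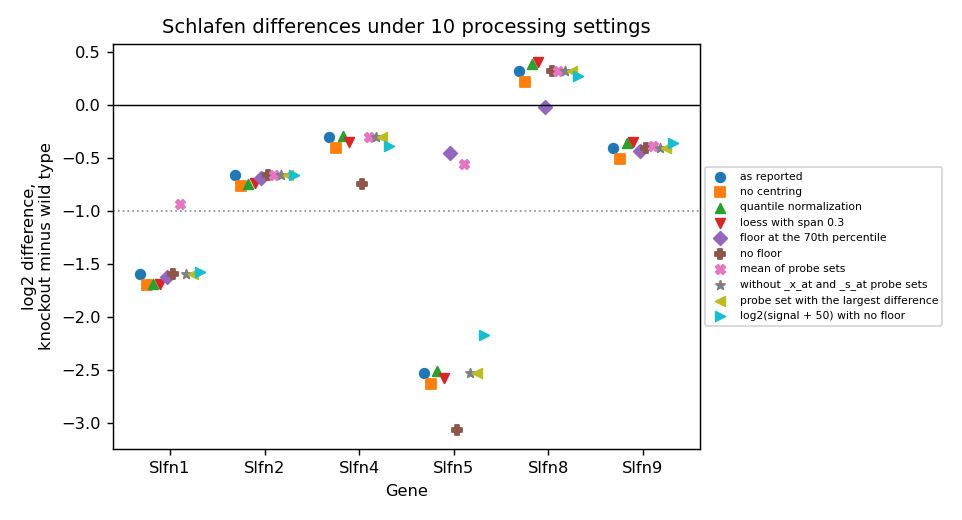
Log2 difference, knockout minus wild type, of each Schlafen gene with a value, under the reported setting and 9 alternatives (symbols); the dotted line marks 2-fold lower. Slfn2 and Slfn9 stay between 0 and the dotted line, as do the values and limits of Slfn4, Slfn1 crosses it only as the mean of its probe sets (-0.93), and Slfn5 ranges from -3.07 to -0.45.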

How the data were processed

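Transcript levels were measured on 2 Affymetrix mouse arrays, 1 per group, from 3 µg of total RNA by one-cycle biotin labelling, per the labels' protocols. The deposited values are linear signal intensities per probe set, and the sources used here do not name the software that summarised them. The mean over probe sets, without the lowest and highest 2%, was 500.004 on both arrays, so the intensities had been scaled globally before the authors deposited them.

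Probe sets were named from the platform annotation: 34945 had 1 symbol, 932 several, 9160 none, and 64 control probe sets were left out of every gene value and of the centring. Python 3.11.15, pandas 2.3.3, statsmodels 0.14.6 and Biopython 1.88 were used. Intensities were taken to log2, with the floor, centring (20834 probe sets) and brightest-probe-set rule of the text. List medians set signals below the floor to it. Promoters were aligned globally.

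The text names the Schlafen genes, any gene called Slfn, up to 4 genes per list with the largest difference measured on both arrays, cluster neighbours, nearest differences and Ecm1. Other genes (Zbp1, Bst2, Oasl1, Ifnar1, Ifnar2, Ang, AI662270, Eif2s3y, Xist, Cd3d, Ccr2, Fcgr2b, Fcgr3, Ccnd3, Myc, Tnfrsf4) were chosen after their values were seen. The members and lists were chosen with earlier results of these data known. With 1 array per group no test was run. Alternatives were no centring, quantile normalization, loess (span 0.3), a 70th-percentile floor, no floor, 3 other ways of choosing probe sets, and log2(signal + 50). The procedure was run on simulated data with large differences planted in bright genes. The planted differences did not cover genes at the floor or differences near 2-fold.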

Additional observations from a re-analysis of the deposited data

How the results depend on the processing

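No paired analysis was possible because a group is a single array. Over 9 alternatives Slfn1, Slfn2, Slfn5 and Slfn9 kept a negative difference (Slfn2 from -0.76 to -0.66, Slfn9 from -0.51 to -0.35). Differences and medians are listed where they shifted by more than the technical SD of a single probe set (0.36). Counts and shares were judged by their ratio to the reported value instead. The cause of a shift was not tested unless the setting itself gives it. With the mean of probe sets, which takes in signals below the floor, Slfn1 was at -0.93 and Slfn5 at -0.55, and 0 Schlafen genes were at least 2-fold lower. With the 70th-percentile floor Slfn5 was at -0.45, and 1 was. With no floor Slfn5 was at -3.07 and Slfn4 at -0.74, which are signals under the floor. Slfn4 had no value at the 70th-percentile floor, and Slfn3 had none to compare. The share of all genes at least 2-fold lower was 12.5% with no floor, 6.82% with the most different probe set and 2.36% with log2(signal + 50), and of genes at least 2-fold higher 15.7% with no floor and 4.39% with log2(signal + 50).

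The medians of the 6 process lists and of T cell markers kept their sign in all 9 alternatives, and those of the other marker lists were not recomputed; that of interferon receptors and signalling was -0.89 with the most different probe set. Counts of interferon-induced genes at least 2-fold lower (11) were 6 at the higher floor and 7 with the mean of probe sets and with log2(signal + 50), and 2 were higher with no floor. For interferon signalling, 4 were lower after quantile normalization and loess and 1 with log2(signal + 50), and 1 was higher with no floor. With the most different probe set 11 quiescence genes were lower. Of RNA cleavage genes 2 were lower after quantile normalization, with the mean and with the most different probe set, and 0 and 5 were higher at the higher floor and with the most different probe set. Of replication stress genes 0 were higher with no centring, quantile normalization or loess, 2 with the mean or without _x_at and _s_at probe sets, and 4 with the most different probe set. Of activation genes 1 was lower with the mean and with the most different probe set. Signal over background limits Slfn3, Slfn4 and Slfn5.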
